A study of Homo sapiens with 30 samples.

Results

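The let-7 microRNA genes are the subject of this report. They were taken by symbol, as the 10 genes MIRLET7A1, MIRLET7A2, MIRLET7A3, MIRLET7B, MIRLET7C, MIRLET7D, MIRLET7F1, MIRLET7F2, MIRLET7G and MIRLET7I, of 1877 miRNA genes and 62750 genes in all. The rule that picks them uses symbols and no measured value, although earlier results of these data were known when it was set. Their levels were read in 6 small RNA libraries with single-end reads of 50 nt, 1 library for each of 6 lines of U-87 MG, an established human glioblastoma line. The parental line, labelled control and wild type, carried no LARP6 construct. Each of the other 5 lines carried a doxycycline-inducible myc-tagged LARP6, an RNA-binding protein of the La-related family, delivered by lentivirus as a codon-optimised sequence and kept as a puromycin-selected population. One line expressed the whole protein (FL). The others lacked the C-terminal region (ΔCTR), the N-terminal region (ΔNTR), the La-module (ΔLa-module) or the N-terminal region together with the La-module (ΔNTD). The labels give doxycycline at 60 ng/mL for 24 h for all samples, parental included. Endogenous LARP6 was not removed in these input samples as far as the labels state.

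Let-7 is one of the most conserved families of animal miRNAs. The primary transcript of a let-7 gene is cut by Drosha and DGCR8 into a hairpin, exported, and cut again by Dicer, after which 1 strand is loaded into an Argonaute protein. The loaded strand finds its target mRNAs mainly through its seed, bases 2 to 8, and the known targets include HMGA2, the RAS genes, MYC and cell cycle genes. LIN28 proteins bind let-7 precursors and block their maturation. In most differentiated tissues let-7 is abundant and is regarded as a brake on growth, and in many tumours it is reduced or blocked.

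The mature 5p forms of the family are shown first because what could be counted at each gene turned on how far they are alike. All sequences are those of RefSeq on GRCh38.p14, read 5′ to 3′, with the seed in capitals. Forms of the 10 genes and of the family members MIRLET7E and MIR98, which were not among the 10, are given.
let-7a-5p: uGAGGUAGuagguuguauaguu
let-7b-5p: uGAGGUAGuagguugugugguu
let-7c-5p: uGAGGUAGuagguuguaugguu
let-7d-5p: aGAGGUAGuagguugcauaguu
let-7e-5p: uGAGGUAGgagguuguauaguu
let-7f-5p: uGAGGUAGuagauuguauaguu
let-7g-5p: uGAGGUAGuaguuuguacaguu
let-7i-5p: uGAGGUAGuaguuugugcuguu
miR-98-5p: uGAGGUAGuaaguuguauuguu

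All 9 forms had the same seed. Against let-7a, counting from 1 at the 5′ end and with the base of let-7a first, let-7c differed by A19G alone, let-7f by G12A alone and let-7e by U9G alone. Let-7b differed by A17G and A19G, let-7d by U1A and U16C, let-7g by G12U and U18C, and miR-98 by G11A and A19U. Let-7i was the most distant, with 4 differences, G12U, A17G, U18C and A19U. A single base therefore separated several of these miRNAs, and some genes could not be separated by their mature form at all. Let-7a-5p occurred at 3 places in the genome, in MIRLET7A1, MIRLET7A2 and MIRLET7A3. Let-7f-5p occurred at 2, in MIRLET7F1 and MIRLET7F2. Each of the other 5p forms had 1 place.

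The bases that follow the mature form differ between the genes that share it. After let-7a-5p the genome reads UUA in MIRLET7A1, UAG in MIRLET7A2 and UGG in MIRLET7A3, so a read had to extend to 24 nt from the mature start to match only 1 of them. After let-7f-5p it reads GUG in MIRLET7F1 and UUA in MIRLET7F2, and 23 nt were enough. These lengths hold for reads copied from the genome throughout. Bases added to a 3′ end, such as a U after let-7f-5p, were not considered and could place a read at the wrong gene. The 3p form of let-7a was shared too, by MIRLET7A1 and MIRLET7A3, whereas the 3p form of MIRLET7A2 occurred once.

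let-7a-3p: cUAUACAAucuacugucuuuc
let-7a-2-3p: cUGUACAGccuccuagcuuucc
let-7g-3p: cUGUACAGgccacugccuugc

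These 3p forms are shown because those of MIRLET7A2 and MIRLET7G occurred once in the genome and shared a 3p seed of their own, while that of MIRLET7A1 and MIRLET7A3 occurred at 2 places. A read counted for MIRLET7A2 could thus come from its 3p arm or from a longer 5p product. The deposited gene counts do not tell the arms apart. Reads of exactly the 22 nt let-7a-5p or let-7f-5p belonged to several genes, and the authors' counter put such reads in a multimapping class that held 13.6 to 18.5% of all reads.

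Of the 10 let-7 genes, 7 had no count in any of the 6 small RNA libraries. These were MIRLET7A1, MIRLET7A3, MIRLET7B, MIRLET7C, MIRLET7D, MIRLET7F1 and MIRLET7I. As a one-sided limit a count of 0 allows up to 3 counts, which was 1.03 to 1.71 CPM depending on the library. It bounds the reads assigned to the gene and not the level of the miRNA. CPM are counts scaled to a common library total, taken here as the counts on miRNA genes without MIR100, because MIR100 alone took 65.8 to 75.5% of all gene counts. The remaining 3 genes, MIRLET7A2, MIRLET7F2 and MIRLET7G, had between 2482 and 371983 counts in each library.

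The 7 genes without counts shared a feature of the annotation (GENCODE release 44, GRCh38). Each of their hairpins lay wholly inside an exon of a long non-coding RNA on the same strand. MIRLET7A1 (chr9:94175957-94176036), MIRLET7F1 (chr9:94176347-94176433) and MIRLET7D (chr9:94178834-94178920) lay in exonic sequence of MIRLET7A1HG on the plus strand. MIRLET7A3 (chr22:46112749-46112822) and MIRLET7B (chr22:46113686-46113768) lay in exons of MIRLET7BHG, MIRLET7C (chr21:16539828-16539911) in an exon of MIR99AHG, and MIRLET7I (chr12:62603686-62603769) in an exon of ENSG00000275180, all on the plus strand. The 3 counted hairpins touched no exon of another gene on their strand. MIRLET7G (ENSG00000199150, chr3:52268278-52268361, minus strand) lay in an intron of WDR82, MIRLET7F2 (ENSG00000208012, chrX:53557192-53557274, minus strand) in an intron of HUWE1, and MIRLET7A2 (ENSG00000198975, chr11:122146522-122146593, minus strand) in an intron of MIR100HG.

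The same split ran through all miRNA genes. Of 285 miRNA genes whose hairpin lay wholly inside an exon of another gene on the same strand, 0 had a count in any small RNA library. Of 1502 whose hairpin touched no such exon, 740 had a count (49.3%), and of 90 that lay partly in one, 38 did (42.2%). A read that overlaps exons of more than 1 gene is put in an ambiguous class by the counter that the authors used, and this class held 40.4 to 54.0% of all reads. In absolute numbers, 8926721 to 17384455 reads per library were ambiguous, 33.0 to 50.2 for every read counted on a let-7 gene. The deposited counts do not show which genes those reads came from, so the level of the 7 genes in these cells is not known from them.

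**Figure D1:**
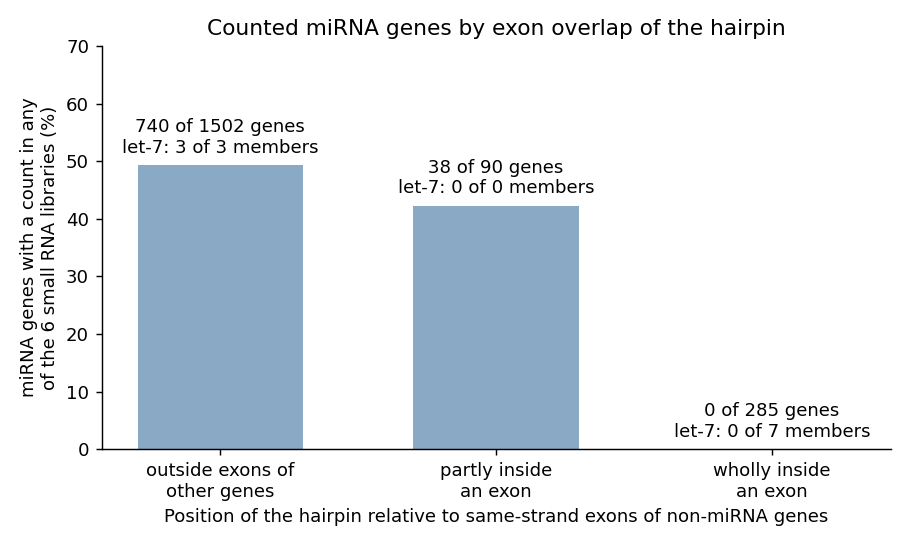
Share of miRNA genes with at least 1 count in any of the 6 small RNA libraries (vertical axis, percent), by the position of the hairpin relative to same-strand exons of other genes. Above each bar stand the gene numbers and the let-7 members in that class: 3 of 3 members outside exons had counts, and 0 of 7 inside an exon.

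Neighbours of the let-7 genes in the same host transcripts split in the same way. MIR99A lies beside MIRLET7C in MIR99AHG, but outside its exons, and had 23889 to 43761 CPM. MIR125B2, another miRNA of that cluster, lay inside an exon and had 0 counts, as did MIR4763 beside MIRLET7B. In the small RNA libraries few reads were assigned to any of the host transcripts. MIRLET7A1HG had 0 to 4 counts, MIRLET7BHG 10 to 23, MIR99AHG 10 to 25 and ENSG00000275180 3 to 8. The hosts of the counted genes were low too, with 8 to 39 for HUWE1, 6 to 20 for WDR82 and 24 to 48 for MIR100HG. Few host reads were thus seen for both kinds of gene.

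Strand mattered for 1 family member. MIRLET7E (chr19:51692786-51692864, plus strand) lies opposite an exon of SPACA6-AS1. It had 28418 to 50178 counts in the forward-strand column used throughout and 0 in the unstranded column. None of the 3 counted members had such an antisense exon.

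MIRLET7G carried most of the let-7 counts. It had 371983 counts in the parental library, 208210 in FL, 210458 in ΔCTR, 238571 in ΔNTR, 296307 in ΔNTD and 248116 in ΔLa-module. It was the best counted miRNA gene, MIR100 aside, in the parental, ΔCTR and ΔLa-module libraries, and ranked 2 or 3 of 1876 in the others. Of the 10 genes it was the only one with both a mature 5p form found at 1 place in the genome and a hairpin outside exons of other genes. The 3 members together took 11.5 to 14.5% of the counts on miRNA genes without MIR100.

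In CPM, MIRLET7G stood at 128114 in parental cells (95% exact Poisson interval 127703 to 128527). It stood at 104000 in FL (103554 to 104447), 119641 in ΔCTR (119130 to 120153), 114690 in ΔNTR (114230 to 115151), 109357 in ΔNTD (108963 to 109751) and 133184 in ΔLa-module (132661 to 133709). The order from high to low was ΔLa-module, parental, ΔCTR, ΔNTR, ΔNTD and FL, and no neighbouring intervals overlapped. These intervals cover counting error only. In RNA from a whole culture, fewer cells that make a miRNA and less of it in each cell cannot be told apart. With 1 library for each line there is no spread between replicates, so no difference between lines was tested and no p-value is given.

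MIRLET7F2 was the next best counted member, although reads of exactly let-7f-5p, which match 2 genes, do not enter its count. It stood at 6556 CPM in parental cells (6463 to 6650), 9472 in FL (9338 to 9608), 6728 in ΔCTR (6607 to 6850), 6968 in ΔNTR (6855 to 7083), 5364 in ΔNTD (5278 to 5452) and 10225 in ΔLa-module (10081 to 10371). The ΔLa-module and FL libraries were the high ones, the parental, ΔNTR and ΔCTR libraries lay close together, and ΔNTD was lowest. Only the intervals of ΔCTR and parental overlapped among neighbours in this order. The counts behind these levels were 11835 to 19049 per library, and the gene ranked 20 to 30.

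MIRLET7A2 stood at 1422 CPM in parental cells (1379 to 1466), 1674 in FL (1618 to 1731), 1411 in ΔCTR (1356 to 1468), 1291 in ΔNTR (1243 to 1341), 1557 in ΔNTD (1511 to 1605) and 1636 in ΔLa-module (1579 to 1695), from 2482 to 4220 counts. It ranked 48 to 51. FL, ΔLa-module and ΔNTD were the high libraries, and the intervals of FL and ΔLa-module, of ΔLa-module and ΔNTD, and of parental and ΔCTR overlapped. This order depended on the scaling. Per all gene counts the log2 ratio to parental turned from 0.24 to -0.12 in FL and from 0.20 to -0.045 in ΔLa-module. FL was then the lowest line, as it was with MIR100 kept among miRNA genes. ΔLa-module was highest without the members in the denominator (log2 0.22), with edgeR's TMM (0.31) and with DESeq2's size factors (0.27). The gene belongs to the cluster of MIR100 and MIR125B1 in MIR100HG and had 0.486 to 0.669 counts per 1000 counts of MIR100. Reads of exactly let-7a-5p, which match 3 genes, do not enter its count. This ratio therefore does not compare the output of the cluster's miRNAs.

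**Figure D2:**
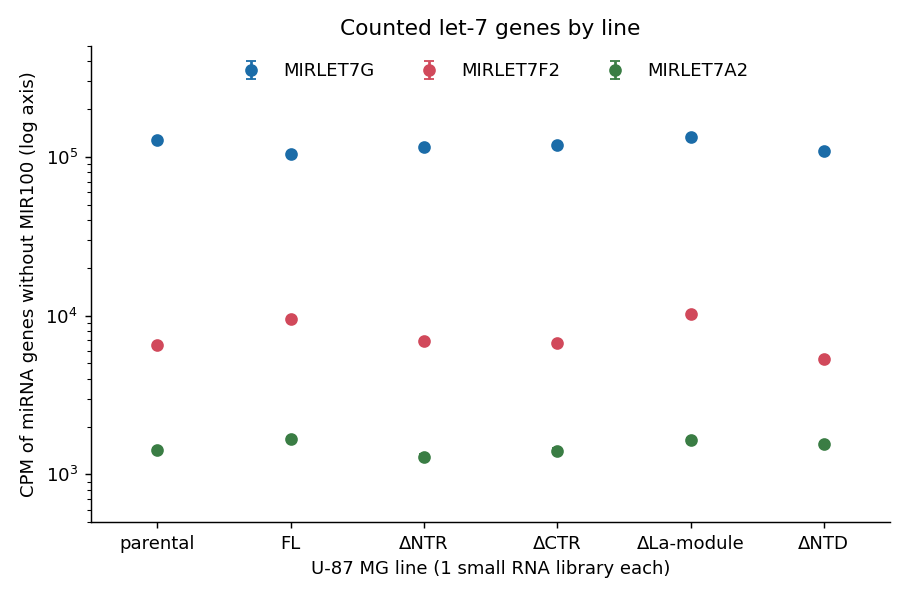
CPM of MIRLET7G, MIRLET7F2 and MIRLET7A2 (vertical log axis) in the 1 small RNA library of each line, with 95% exact Poisson intervals that are mostly narrower than the points. MIRLET7G lies between 104000 and 133184 CPM, MIRLET7F2 between 5364 and 10225 and MIRLET7A2 between 1291 and 1674, with 1 library behind each point.

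Over the 6 libraries the 3 members varied to different degrees. The log2 standard deviation was 0.14 for MIRLET7G and for MIRLET7A2, with 1.28-fold and 1.30-fold between the highest and the lowest line. Of the 252 miRNA genes with a mean of at least 20 counts and counts in every library, 9.52% and 11.5% varied less than these. Genes near 20 counts carry more counting error, and MIRLET7G is a large part of its own denominator. Per all gene counts the range of MIRLET7G was 1.58-fold. MIRLET7F2 varied more, with a log2 standard deviation of 0.35 and a 1.91-fold range, close to the median miRNA gene at 0.33 and 1.87-fold. MIRLET7E had 14936 to 17651 CPM and a standard deviation of 0.09, and 2.38% of the miRNA genes varied less. MIR98 had 635 to 851 CPM and 1.34-fold between its extremes.

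The question put to the lines was whether induced LARP6, whole or lacking a region, went with another let-7 level than in parental cells. A change of at least 1.5-fold, fixed as a rule of size in place of a test, was met by 1 member in 1 line. MIRLET7F2 was 1.56-fold higher in ΔLa-module (interval 1.53 to 1.59, log2 0.64). In that library 14.2% of the 253 miRNA genes with a mean of at least 20 counts were that much higher and 26.9% that much lower, and 63.6% changed less than MIRLET7F2. One of 3 counted members on this background is not a result about the family.

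In FL, 0 of the 3 counted members passed 1.5-fold, where 19.8% of miRNA genes were higher and 18.6% lower. MIRLET7F2 was 1.44-fold of parental (1.42 to 1.47), MIRLET7A2 1.18-fold (1.12 to 1.23) and MIRLET7G 0.812-fold (0.807 to 0.816). So the members pointed different ways in the same library. The other lines gave no member past the threshold either. Of the miRNA genes, 5.14% were higher and 12.6% lower in ΔCTR, 4.74% and 15% in ΔNTR, and 5.93% and 15.8% in ΔNTD. The members' log2 ratios ran from -0.10 to 0.04 in ΔCTR, from -0.16 to 0.09 in ΔNTR and from -0.29 to 0.13 in ΔNTD. The median absolute log2 ratio of the 253 genes was 0.44 in FL, 0.18 in ΔCTR, 0.25 in ΔNTR, 0.28 in ΔNTD and 0.48 in ΔLa-module. All 5 comparisons share the parental library.

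**Figure D3:**
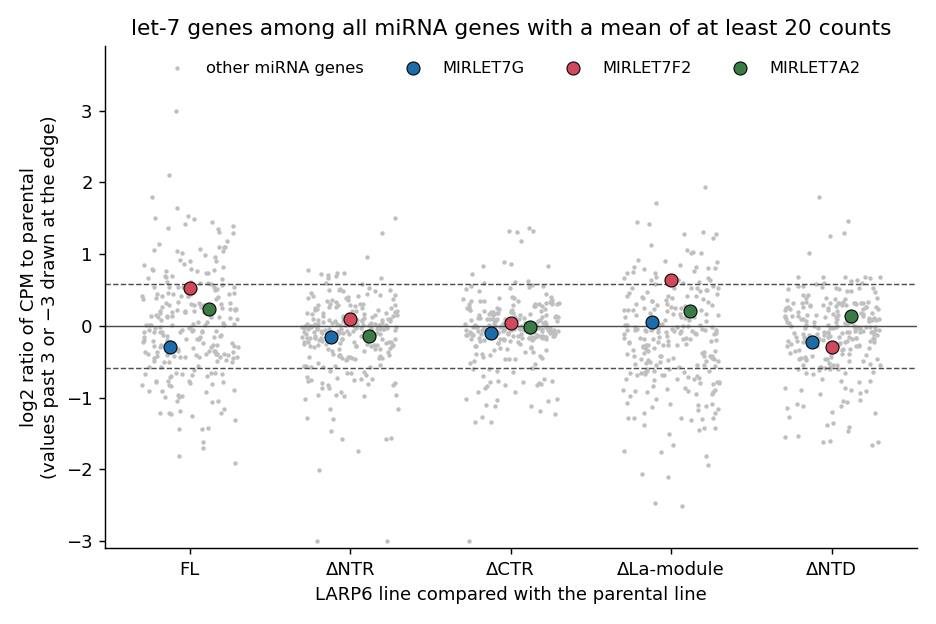
Log2 ratio of CPM to the parental library (vertical axis) for the 3 counted let-7 genes, in colour, and the other miRNA genes with a mean of at least 20 counts, in grey, in each LARP6 line. Dashed lines mark 1.5-fold, which only MIRLET7F2 in ΔLa-module reaches, at 0.64.

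Ratios between let-7 genes of the same library do not depend on how libraries are scaled. There were 51.2 MIRLET7F2 counts per 1000 MIRLET7G counts in parental cells (50.4 to 51.9, exact binomial interval), 91.1 in FL (89.7 to 92.4), 56.2 in ΔCTR (55.2 to 57.3), 60.8 in ΔNTR (59.7 to 61.8), 49.1 in ΔNTD (48.2 to 49.9) and 76.8 in ΔLa-module (75.6 to 77.9). FL, at 1.78 times the parental ratio, and ΔLa-module stood above the other 4 libraries, and no intervals overlapped. The MIR100 share of gene counts was also highest in these libraries, 75.5% in FL and 73.6% in ΔLa-module against 65.8 to 69.5% in the rest. The part of that share in the ratio was not tested.

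MIRLET7A2 per 1000 MIRLET7G counts followed another order. It was 11.1 in parental cells (10.8 to 11.4), 16.1 in FL (15.5 to 16.7), 11.8 in ΔCTR (11.3 to 12.3), 11.3 in ΔNTR (10.8 to 11.7), 14.2 in ΔNTD (13.8 to 14.7) and 12.3 in ΔLa-module (11.8 to 12.7). FL was again the highest, at 1.45 times the parental ratio, but here ΔNTD came next, and the intervals of the remaining 4 libraries ran into each other in a chain. MIRLET7F2 per 1000 MIRLET7A2 ranged from 3444 in ΔNTD to 6250 in ΔLa-module.

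**Figure D4:**
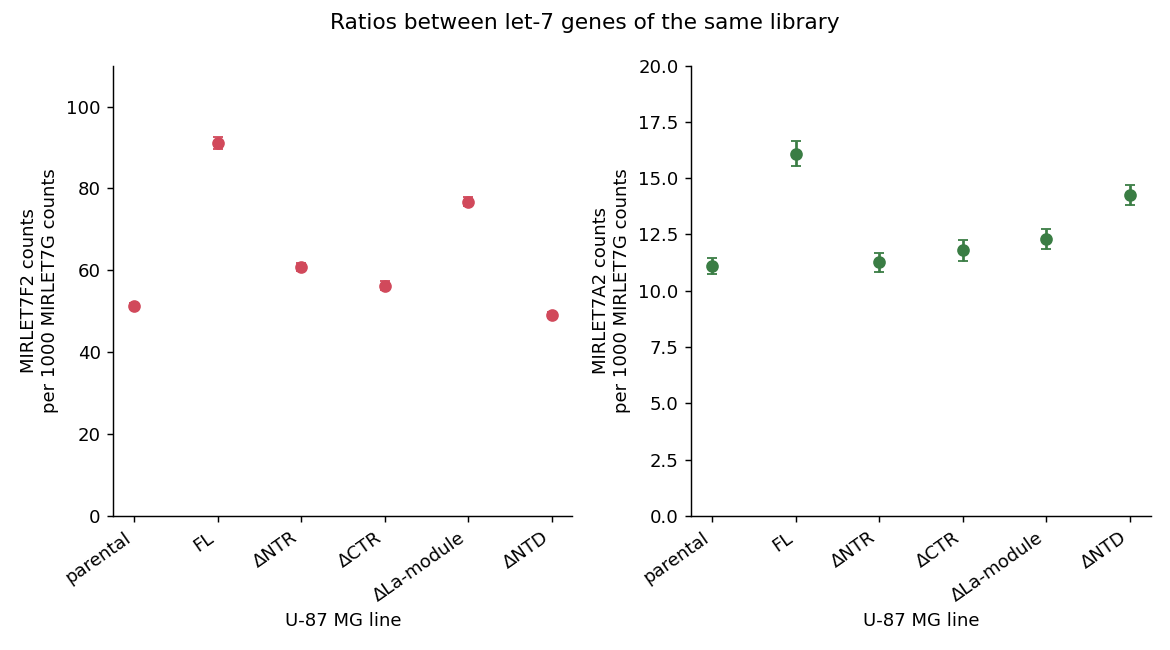
Counts of MIRLET7F2 (left) and MIRLET7A2 (right) per 1000 MIRLET7G counts of the same library, by line, with 95% exact binomial intervals and axes from 0. FL is highest in both panels, at 91.1 and 16.1, and ΔLa-module is high for MIRLET7F2 (76.8) but not for MIRLET7A2 (12.3).

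MIRLET7F2 shares an intron-borne cluster in HUWE1 with MIR98. Reads of exactly let-7f-5p match 2 genes and enter no gene count, whereas miR-98-5p occurred at 1 place. So the counts of MIRLET7F2 and MIR98 cover unlike parts of the miRNAs. MIRLET7F2 counts per 1000 MIR98 counts were 7885 in parental cells (7558 to 8230) and 11136 in FL (10596 to 11709). They were 8207 in ΔCTR (7770 to 8674), 8199 in ΔNTR (7803 to 8618) and 8451 in ΔNTD (8038 to 8889). ΔLa-module had 12499 (11863 to 13177). The intervals of FL and ΔLa-module lay above the others, and those of the other 4 libraries all overlapped. MIR98 itself was at 1.02-fold of parental in FL and 0.984-fold in ΔLa-module. MIRLET7A2 had 86.5 to 106 counts per 1000 counts of its cluster partner MIR125B1, a narrower range. MIR125B1 itself differed 1.31-fold between its extremes, against 1.34-fold for MIR98. Reads of exactly let-7a-5p are missing from this ratio too, and the mature forms of MIR125B1 were not searched in the genome.

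The summed level of the let-7 members depended on what it was set against. Relative to parental, its log2 ratio was -0.24 in FL, -0.09 in ΔCTR, -0.15 in ΔNTR, -0.23 in ΔNTD and 0.09 in ΔLa-module, all under 1.5-fold. FL and ΔNTD were below parental under all 8 other scalings, columns and sets of miRNA genes tried, whereas ΔNTR turned positive under TMM and with MIR100 kept among miRNA genes, ΔCTR under TMM, and ΔLa-module turned negative under both denominators that hold MIR100. Without MIRLET7G the ratio was 0.48 in FL, 0.03 in ΔCTR and 0.05 in ΔNTR, where the sign turned, and -0.20 in ΔNTD and 0.57 in ΔLa-module, where it did not. With all gene counts as the denominator, MIRLET7G in FL had a log2 ratio of -0.66, past 1.5-fold. That denominator moved the median of the 253 genes in FL by -0.36 and in ΔLa-module by -0.25. TMM moved the medians of ΔCTR, ΔNTR, ΔNTD and ΔLa-module by 0.15, 0.16, 0.17 and 0.11.

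**Figure D5:**
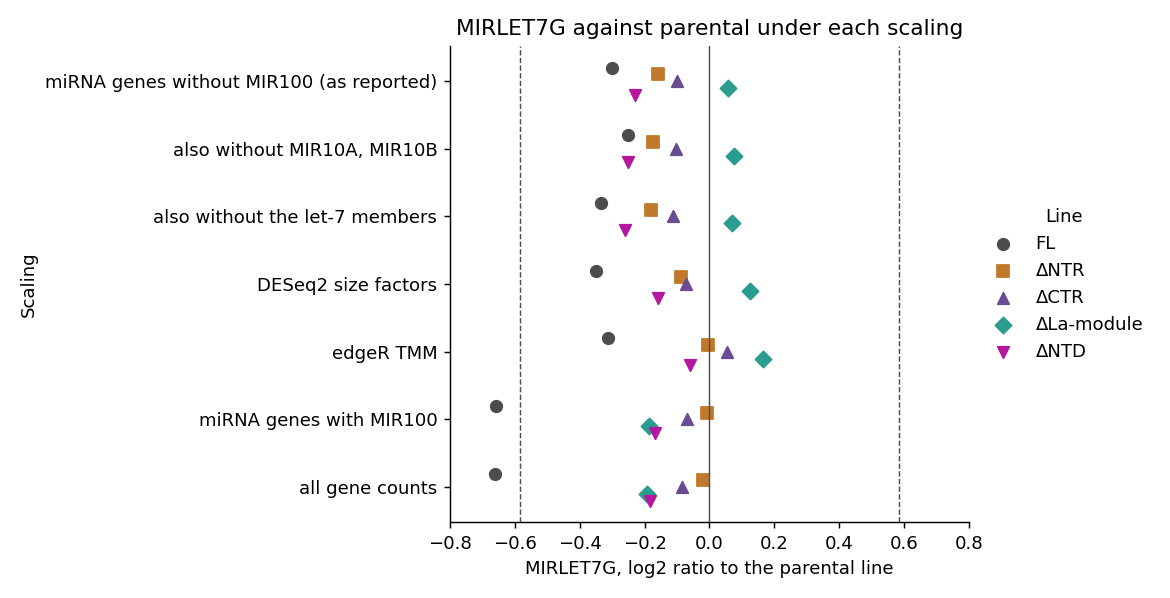
Log2 ratio of MIRLET7G to parental (horizontal axis) in each LARP6 line under 7 scalings (vertical axis), with dashed lines at 1.5-fold. FL and ΔNTD lie below 0 under each of the 7, ΔNTR too but within 0.01 of 0 under TMM and with MIR100 kept, ΔCTR is above 0 under TMM, and ΔLa-module is below 0 under the 2 scalings that hold MIR100.

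Other miRNA genes were ranked by how near their levels over the lines came to those of the summed members. Likeness was the root mean square difference of log2 levels centred over the 6 libraries, among 161 miRNA genes with a mean of at least 100 counts. The closest 5 were MIR30C1 (0.10), MIR25 (0.10), MIR3117 (0.11), MIR152 (0.11) and MIR106B (0.12), against a median of 0.30. MIR25 had 29856 to 34867 CPM over the lines and MIR152 12217 to 15440. The summed members varied little, with a log2 standard deviation of 0.13, so genes that hardly varied also came out close. Closeness therefore did not mean a shared order of lines. MIR106B, like the sum, was highest in ΔLa-module, but it was lowest in parental cells (8887 CPM), and the sum in FL. The gene closest to MIRLET7F2 alone was MIR183, at 0.14 against a median of 0.40, which had 423 CPM in parental cells, 791 in FL and 853 in ΔLa-module.

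Long RNA libraries of the same lines, paired-end with 150 nt reads and 25027075 to 28692476 gene counts each, gave the host transcripts. HUWE1, the ubiquitin ligase gene that holds MIRLET7F2, had 16133 to 19810 counts, and log2 ratios to parental from -0.13 to 0.00. WDR82, which holds MIRLET7G, had 3484 to 4285 counts and -0.19 to -0.01. MIR100HG, which holds MIRLET7A2, had 7562 to 8866 counts, lowest in parental cells, with ratios of 0.08 to 0.19. Between lines these hosts differed less than MIRLET7F2 did, but hosts and miRNAs come from unlike libraries and scalings. HUWE1 was at log2 -0.05 in ΔLa-module, where MIRLET7F2 was at 0.64, or at 0.39 per all gene counts. The part of host transcription in the miRNA levels was not tested.

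Hosts of the genes without miRNA counts were transcribed as well. MIRLET7BHG had 1153 to 1637 counts, MIR99AHG 2276 to 2552, MIRLET7A1HG 422 to 516 and ENSG00000275180 136 to 209. MIRLET7IHG had 232 counts in parental cells and 160 to 188 in the LARP6 lines, with its lowest log2 ratios at -0.56 in ΔNTD and -0.55 in ΔCTR. No host passed 1.5-fold in any line. The share of all 14929 genes past 1.5-fold in either direction was 5.71% in FL, 6.52% in ΔCTR, 10.8% in ΔNTR, 8.46% in ΔNTD and 8.21% in ΔLa-module. In the long libraries the let-7 hairpins held few reads: 110 to 130 for MIRLET7A2 and 0 to 8 for MIRLET7G. These libraries were made from long RNA, and such reads were not used as levels.

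Genes that make and regulate let-7 differed little between lines. Of the 19 on a list of biogenesis factors, 17 passed a mean of 20 counts in the long libraries, and 1 passed 1.5-fold in 1 line. This was AGO4, an Argonaute, with 463 counts in parental cells, 711 in FL, 582 in ΔCTR, 654 in ΔNTR, 621 in ΔNTD and 587 in ΔLa-module. All 5 LARP6 libraries were above parental, by log2 0.60 in ΔNTR and 0.55 in FL at most. Of all genes 10.8% passed in ΔNTR, so 1 of 17 was no excess.

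The let-7 inhibitor LIN28A had 0 counts in all 6 long libraries, and LIN28B had 76 (ΔNTR) to 141 (ΔNTD), which was 3.04 to 5.12 CPM, with 104 in parental cells. TRIM71, a let-7 target of stem cells, had 1 count in all. The best counted factors were HNRNPA1 and KHSRP, RNA-binding proteins that act on let-7 precursors, DICER1, AGO2 and AGO1, and their log2 ratios ran from -0.24 to 0.09. The median log2 ratio of the list was between -0.07 and 0.02 over the lines, against -0.01 to 0.00 for all genes.

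Of 22 known let-7 targets, 18 passed the count filter. Passing it does not mean that a gene was abundant, since LIN28B passed at 3.04 to 5.12 CPM and IL6 at 2.99 to 6.21. The best counted were CCND1, a cyclin (31587 to 36858 counts), HMGA1 and HMGA2, chromatin proteins (15761 to 19240 and 10321 to 12355), NRAS (7514 to 9439) and IGF2BP3, an RNA-binding protein (5360 to 6831). HMGA2, a much studied let-7 target, had log2 ratios between -0.28 in ΔNTD and 0.00 in ΔCTR. Past 1.5-fold was IL6 alone, a cytokine gene, with 105 counts in parental cells, 84 in FL, 114 in ΔCTR, 120 in ΔNTR, 171 in ΔNTD and 172 in ΔLa-module, at log2 0.67 and 0.62 in the last 2. The list's median log2 ratio was 0.05 in FL, 0.07 in ΔCTR and ΔNTR, 0.11 in ΔNTD and 0.12 in ΔLa-module. For all genes the median was -0.008 to -0.002, and their median absolute log2 ratio was 0.12 to 0.18. These comparisons share the parental library, and the shift of the list was not tested. IL6 in ΔLa-module and ΔNTD was 1 of 18 targets each, where 8.21% and 8.46% of all genes passed.

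The labelled cell type was checked in the long libraries. All 7 mesenchymal glioma genes were detected, from VIM at 7039 to 8004 CPM and CD44 at 2083 to 2336 down to CHI3L1 at 84.1 to 111 and NES at up to 57.7, whereas the glial markers GFAP and SOX2 were at or near 0 (at most 6 counts and 1 count). OLIG2 had 41 to 70 counts. The 6 markers of other cells lay between 1 count (PTPRC, of leukocytes) and 67 counts (EPCAM, of epithelium), with PECAM1, of endothelium, at 28 to 65.

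Binding of LARP6 was read from 1 pooled list of iCLIP peaks for each variant, in which the authors had merged 3 replicates and removed peaks of parental cells. None of the 12 let-7 family hairpins, the 10 members with MIRLET7E and MIR98, held a peak in any of the 5 lists. Peaks in miRNA hairpins were rare altogether, with 2 of 1877 in FL, 3 in ΔCTR, 1 in ΔNTR and 0 in the other 2 lists. One FL peak lay within 1000 nt of MIRLET7C. The lists rest on RNA fragments of pooled replicates without a depth, so a hairpin without a peak is not shown to be unbound.

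The host transcripts did hold peaks. WDR82 had 4 peaks in FL, 5 in ΔCTR and 6 in ΔNTR. Its highest peak lay at chr3:52255698-52255726 in FL, in exonic untranslated sequence on the minus strand and away from the MIRLET7G intron, with a score of 21. The highest WDR82 peaks of ΔNTR (score 7) and ΔCTR (score 23) lay at the same place, and ΔLa-module and ΔNTD had none in this gene. The score is the authors' whole-number peak score, summed over replicates, at least 3 in each list and not scaled to depth. HUWE1 had 10 peaks in FL and in ΔCTR, 14 in ΔNTR and 1 in ΔLa-module, none with a score above 5.

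In all, 4 of 8 host genes had a peak in FL, 5 in ΔCTR, 6 in ΔNTR, 1 in ΔNTD and 3 in ΔLa-module. Of 14920 genes with a mean of at least 20 long library counts, 31.1%, 33.2%, 31.7%, 1.67% and 3.06% had one, in the same order. Among let-7 targets, 11 of 22 had a peak in FL, ΔCTR and ΔNTR each, 1 in ΔNTD and 5 in ΔLa-module. CCND1 led with a summed score of 397 in FL, 546 in ΔCTR and 440 in ΔNTR, followed by HMGA1 with 141, 113 and 108. Of the biogenesis factors, 10 of 19 had a peak in FL, 10 in ΔCTR, 7 in ΔNTR, 2 in ΔNTD and 0 in ΔLa-module, and KHSRP had the most in FL, 6. These counts of genes were not set against expression.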

How the data were processed

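The small RNA and long RNA input libraries reached this work as deposited counts per gene, with columns for unstranded, forward and reverse counting. Per the labels and methods, the authors trimmed reads with Trim Galore (0.6.10) and counted uniquely mapped reads with STAR (2.7.10b) on GRCh38.p13 with a GENCODE annotation. Reads that map to several places or overlap several genes form classes of their own and enter no gene count. For iCLIP, the deposited value is the authors' peak score, summed over 3 replicates after Clippy, with parental peaks removed by bedtools (2.30.0).

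The forward column was used for small RNA (25.2 to 31.9 times the reverse) and the reverse column for long RNA (8.76 to 9.71 times the forward). Small RNA libraries held 6181270 to 10307756 gene counts, of which 1759078 to 2903520 on miRNA genes without MIR100 were the CPM denominator. Long RNA counts were scaled with edgeR (4.0.16) TMM factors. DESeq2 (1.42.0) size factors were an alternative. Genes with a mean of at least 20 counts over the 6 libraries entered comparisons. Exons came from GENCODE release 44, later than the authors' release, and 125 of 62750 identifiers did not match it. Mature sequences came from RefSeq and were searched on both strands of the genome for exact matches. All mature forms printed were in that table, and no 3p form of MIRLET7F2 was.

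Intervals are 95% exact Poisson or binomial and cover counting error only, since reads without molecular identifiers are not independent molecules. With 1 library per line and protocol no test was possible. The ratio functions were tested on simulated data. Named genes were the members, MIRLET7E and MIR98, cluster partners, hosts, listed genes past 1.5-fold or among the 5 best counted of a list, and the 5 most alike miRNA genes. The members and lists were chosen with earlier results of these data known. LIN28A, LIN28B, TRIM71 and OLIG2 and the gene most like MIRLET7F2 were named after their values were seen.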

Additional observations from a re-analysis of the deposited data

How the results depend on the processing

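No paired analysis was possible because each line had 1 input library and no result comes from a test. Nor was there a replicate to leave out. Values below are log2 ratios of the summed let-7 level to parental, in the order FL, ΔCTR, ΔNTR, ΔNTD and ΔLa-module unless lines are named, and those outside the counting interval of the value reported are given. Per all gene counts they were -0.60, -0.076, -0.0078, -0.18 and -0.16. With MIR100 kept among the miRNA genes they were -0.60, -0.062, 0.0047, -0.17 and -0.15. Without the members in the denominator they were -0.28, -0.10, -0.17, -0.26 and 0.11. Without MIR10A and MIR10B they were -0.19 in FL, -0.16 in ΔNTR, -0.25 in ΔNTD and 0.11 in ΔLa-module. With edgeR's TMM they were -0.25, 0.062, 0.010, -0.060 and 0.20, and with DESeq2's size factors -0.29, -0.065, -0.075, -0.16 and 0.16. The unstranded column gave -0.22 in FL, -0.21 in ΔNTD and 0.12 in ΔLa-module. The sum without MIRLET7G gave 0.48, 0.029, 0.050, -0.20 and 0.57. The median of the members' ratios gave 0.24 in FL, -0.011 in ΔCTR, -0.14 in ΔNTR and 0.20 in ΔLa-module. A sum with MIRLET7E and MIR98, an alternative chosen after seeing the data, gave -0.21 in FL and 0.070 in ΔLa-module. In all, 9 of 55 recomputed sums had the other sign and 2, both in FL with MIR100 in the denominator, passed 1.5-fold.

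Members past 1.5-fold changed in number under few settings. With either denominator that holds MIR100, 1 member was lower in FL (MIRLET7G) and 0 were higher in ΔLa-module. With the lower fold threshold 1 member was higher in FL, and at 2-fold 0 were higher in ΔLa-module. The fold between the highest and lowest line for MIRLET7G was 1.58 per all gene counts and 1.58 with MIR100 kept, 1.33 without the members in the denominator, 1.26 without MIR10A and MIR10B, 1.39 with TMM and 1.39 with DESeq2. For MIRLET7F2 the same 5 settings up to TMM gave 1.56, 1.55, 1.97, 1.96 and 1.83, with ΔLa-module highest and ΔNTD lowest in each. For MIRLET7A2 the fold was 1.23 per all gene counts, with ΔNTD highest and FL, which was highest in the values reported, lowest. With MIR100 kept ΔNTD was also highest and FL lowest. ΔLa-module was highest without the members in the denominator, with TMM and with DESeq2. The counts of biogenesis and target genes past 1.5-fold in the long libraries were within 1.5 times of those reported under both alternatives. The cause of these differences between settings was not tested, beyond MIR100 holding 65.8 to 75.5% of the gene counts. The deposited counts limit the account to 3 of 10 let-7 genes, and what the 7 others did cannot be read from them.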
